A study of Mus musculus with 40 samples.

Results

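The cytosolic ribosomal protein genes were taken by name from an expression table of 5 mouse tissues in which p53 had been activated by loss of Mdm2. The rule kept symbols that begin with Rpl, Rps or Rplp followed by a number, with only a few allowed suffixes, and Rpsa. It found 82 of the 18024 genes in the table. By name, 31 encode proteins of the small ribosomal subunit and 51 encode proteins of the large subunit. The 82 include 6 paralogs (Rps27l, Rpl22l1, Rpl3l, Rpl39l, Rpl36al and Rpl7l1), which were read apart from the other 76. A paralog is here a relative of a standard subunit protein, encoded by a separate gene.

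Cytosolic ribosomal proteins are made in nearly equal numbers, because each ribosome holds them in a fixed ratio, and their messenger RNAs are among the most abundant of a cell. Most of these messages start with a pyrimidine tract (the TOP motif) through which the growth kinase mTORC1 controls their translation. The proteins also touch the p53 pathway directly. Rpl5 and Rpl11 form a particle with 5S ribosomal RNA (the 5S RNP) that binds and inhibits Mdm2, the E3 ligase that marks p53 for degradation, when ribosome assembly fails. Rps27l is a known transcriptional target of p53, and Rps27 and Rps27l have both been reported to bind Mdm2.

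The mice were of strain C57BL/6j and were 60 days old, and RNA was taken 24 hours after acute p53 activation. Tg mice (Mdm2+/- Cag-CreERTg) keep 1 intact copy of Mdm2, and FMTg mice (Mdm2FM/- Cag-CreERTg) carry the FM allele over the same null allele, so both groups carry the Cre transgene and 1 lost copy of Mdm2. The CAG promoter that drives the Cre fusion is active in nearly all cell types and the labels give loss of Mdm2 as the cause of p53 activation in FMTg mice. The design of the FM allele and the inducing agent are not given in the sources used here. There were 3 Tg and 5 FMTg libraries of whole tissue for each of heart, kidney, ovary, pancreas and small intestine, 40 libraries of total RNA from 13 mice. The same 3 Tg mice gave all Tg libraries, and 10 FMTg mice gave the others. In whole tissue, fewer cells of a type and less RNA per cell cannot be told apart.

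Library depth was 7.16 to 13.9 M (mega) reads for the pancreas, 14.6 to 27.9 M for kidney, 8.97 to 22.97 M for ovary, 15.3 to 29.0 M for heart and 14.4 to 23.3 M for small intestine. Values below are normalised reads, that is reads divided by the size factor of the library, unless another scale is named. FMTg replicates 4 and 5 of every tissue came from the 6 mice with the lowest animal numbers in the labels, and replicates 1 to 3 came from 4 others. The Y-linked gene Ddx3y had 404 to 2343 normalised reads in these replicates 4 and 5 of pancreas, kidney, heart and small intestine and 914 in FMTg pancreas replicate 1, but at most 26.1 in every other library. Replicates 4 and 5 stood apart for many ribosomal protein genes, so values without them are given beside the results they touch. All Tg mice gave an ovary library. In pancreas, kidney, heart and small intestine sex is thus partly confounded with genotype, and the 2 cannot be fully told apart. Without replicates 4 and 5 the pancreas still holds FMTg replicate 1, with 914 normalised reads of Ddx3y. Other libraries stood apart in their tissue markers. Pancreas acinar markers took 21.4% of the reads of Tg ovary replicate 1, heart markers took 0.50% of Tg small intestine replicate 1, and heart markers took 1.85% of FMTg heart replicate 2 against 3.36% to 5.22% in the other 7 hearts.

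Known p53 targets had more reads in the FMTg libraries of every tissue. Mdm2, itself a p53 target, had more normalised reads in each FMTg library than in any Tg library of its tissue, with a log2 change of 2.00 in the kidney, 1.59 in the pancreas, 1.30 in small intestine, 0.80 in heart and 0.77 in ovary. Of 12 p53 target genes used as a check, 11 in the pancreas, 12 in the kidney and 3 in the heart were called higher by limma at an adjusted p under 0.05, and 0 in ovary and small intestine. At an unadjusted p under 0.05, 10 of 12 were higher in the ovary and 12 of 12 in the small intestine. Cdkn1a, the cell cycle inhibitor p21, rose by 3.02 ± 0.24 in the kidney (adjusted p = 0.0005) and by 1.77 ± 0.29 in the pancreas (adjusted p = 0.0337). Ccng1, cyclin G1, rose by 2.30 ± 0.30 and 1.85 ± 0.22 there (adjusted p = 0.0075 and 0.0077). In the ovary both overlapped between groups, at 1.14 and 1.17. Reads summed over the whole Mdm2 gene do not check the loss of Mdm2.

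Rps27 and Rps27l are the pair on which the genotype comparison turned. Rps27 lies on chromosome 3 (90212522 to 90213651, minus strand) and Rps27l on chromosome 9 (66946086 to 66949516, plus strand) in GENCODE M21 on GRCm38. Their coding sequences have 255 bases each, of which 194 are the same and 61 differ (76.1% identity). They are shown in full because the differences are spread along their length, so that reads of 1 gene can be told from reads of the other. No stretch of 50 bases is shared between the 2 transcripts. Capitals mark the bases that differ:
Rps27: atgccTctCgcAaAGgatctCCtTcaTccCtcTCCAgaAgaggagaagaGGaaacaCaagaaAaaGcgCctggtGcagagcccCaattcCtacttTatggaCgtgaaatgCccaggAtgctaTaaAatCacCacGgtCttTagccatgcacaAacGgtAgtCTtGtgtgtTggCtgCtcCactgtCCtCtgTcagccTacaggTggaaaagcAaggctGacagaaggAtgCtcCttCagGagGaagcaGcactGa
Rps27l: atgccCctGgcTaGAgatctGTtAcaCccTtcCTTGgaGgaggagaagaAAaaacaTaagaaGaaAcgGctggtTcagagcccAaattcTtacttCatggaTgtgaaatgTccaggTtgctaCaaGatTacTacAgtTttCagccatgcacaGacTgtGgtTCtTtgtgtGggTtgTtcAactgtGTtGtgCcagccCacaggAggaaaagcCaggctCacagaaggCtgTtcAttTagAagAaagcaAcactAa

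The starts of the 2 genes also differ. The 30 bases around each RefSeq start site (GRCm38.p6, 15 bases before it and the first 15 transcribed) are shown beside the 3 standard genes with the longest pyrimidine tract over the start. Capitals mark the unbroken run of C and T that covers the first transcribed base. Rps27l has none, since its first base is not a pyrimidine, whereas Rps27 starts within a run of 9:
Rps27, chr3:90213634-90213663, minus strand: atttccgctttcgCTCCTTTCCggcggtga
Rps27l, chr9:66946071-66946100, plus strand: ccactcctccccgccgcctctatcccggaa
Rpl7a, chr2:26910792-26910821, plus strand: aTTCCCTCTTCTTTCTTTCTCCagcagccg
Rpl27a, chr7:109519180-109519209, plus strand: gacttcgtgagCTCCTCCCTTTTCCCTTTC
Rpl34, chr3:130730323-130730352, minus strand: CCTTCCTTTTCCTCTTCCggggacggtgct

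Rps27l also held 2 matches to the p53 half-site, the consensus of 10 bases of which 2 copies make up a full p53 binding site. They lie downstream of the first start site, in the window of a second RefSeq start, and in no exon of the 6 GENCODE transcripts of the gene, that is in an intron of those that span them. The 2 matches lie at -210 and -107 bases from that second start, so they do not adjoin. A match to these letters describes the sequence and is not a measured binding site. Capitals mark the half-site matches:
Rps27l, chr9:66946193-66946222: ctttgggctcGGGCTTGCTTtccttcaggc
Rps27l, chr9:66946296-66946325: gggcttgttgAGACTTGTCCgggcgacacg

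In the fits of single tissues Rps27l was the one ribosomal protein gene called between genotypes, in the kidney. Its normalised reads were 917, 707 and 981 in the Tg kidneys and 1570, 1784, 1849, 1520 and 1340 in the FMTg kidneys. All 5 FMTg kidneys lay above all 3 Tg kidneys. The log2 change was 0.89 ± 0.14 (SE of the limma model, 3 against 5 libraries; adjusted p = 0.0273), a 1.86-fold difference. Among all 15415 genes tested in the kidney, 0.603% were called higher and 0.013% lower. The call was lost in the mouse-blocked model of all libraries (change 0.82, adjusted p = 0.438, background 0.358% higher and 0.00618% lower), on log2 RPM (reads scaled to the library's total, plus 0.5; change 0.79, adjusted p = 0.186, background 0.422% and 0.00649%) and without a variance trend (adjusted p = 0.0697, background 0.467% and 0.00649%). Leaving out any 1 of the 3 Tg kidneys or of FMTg replicates 1 to 3 ended the call, with adjusted p between 0.0270 and 0.160 over the 8 fits that each left out 1 library. Without FMTg replicates 4 and 5 the change was 1.00 (adjusted p = 0.0186, with 0.778% of all genes called higher and 0.0195% lower).

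In the heart the 2 groups were also apart for Rps27l, without a call. Normalised reads were 558, 506 and 554 in Tg and 904, 950, 840, 860 and 670 in FMTg hearts. The log2 change was 0.63 ± 0.14, higher in 5 of 5 FMTg libraries than in any Tg library, with an adjusted p of 0.641. With library weights it was called (change 0.67, adjusted p = 0.0361, background 0.146% higher and 0.019% lower). The two-sided exact permutation test over the 56 divisions of 8 libraries gave p = 0.0179 in the kidney and in the heart, the smallest it can give, and 0.134 for both after adjustment over 15 tests of Rps27l, Rpl22l1 and Rpl3l. In the small intestine the Tg libraries had 912, 834 and 1002 and the FMTg libraries 1365, 1261, 1607, 1038 and 891 normalised reads. There the groups overlapped through FMTg replicate 5, and the log2 change of 0.40 ± 0.19 was not called (adjusted p = 0.990).

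In pancreas and ovary Rps27l was not called and the sign of its change was not stable. The Tg pancreas libraries had 2470, 3043 and 2506 normalised reads, and FMTg replicates 1 to 3 had 2905, 2956 and 2833, within the Tg range. FMTg replicates 4 and 5 were lower, at 1275 and 2131, and the log2 change over all libraries was -0.20 ± 0.27 (adjusted p = 0.871), but 0.12 without these 2 libraries and 0.093 with library weights. In the ovary the Tg libraries had 1311, 565 and 575 and the FMTg libraries 452, 790, 1138, 518 and 464, a log2 change of -0.26 ± 0.38 (adjusted p = 0.899). The highest of them, Tg ovary replicate 1, is the ovary library with 21.4% of its reads from pancreas acinar markers, and without it the ovary change was 0.14. The highest FMTg ovaries, replicates 3 and 2, also held acinar markers, at 4.57% and 2.00% of reads against at most 0.066% in the other 3. The part of pancreas tissue in these values was not tested. The difference of the genotype effect of Rps27l between tissues was tested with the F test of the limma model and had an adjusted p of 0.240 over all genes (0.0047 unadjusted).

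The share of Rps27l in the sum of Rps27 and Rps27l, each divided by transcript length, cancels any factor that acts on both genes of a library alike. This measure was added after the values were seen. Kidney showed the tightest groups. There the share was 23.1% ± 0.2 in Tg (SD, n = 3) and 33.9% ± 1.0 in FMTg (SD, n = 5), with no overlap (22.9% to 23.3% against 32.9% to 35.6%). In the heart it was 10.7% ± 0.6 against 17.9% ± 1.4, and in the small intestine 16.4% ± 0.8 against 23.1% ± 3.5, both without overlap. The small intestine groups nearly touched, with 17.2% in the highest Tg and 17.3% in the lowest FMTg library. A share also changes with Rps27, and the small intestine reads of Rps27l alone overlapped between the groups. The two-sided exact permutation test gave p = 0.0179 in kidney and heart and 0.0357 in the small intestine. Over all 16 pairs and tissues tested this way the adjusted values were 0.0952, 0.0952 and 0.143, so none passed.

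In the pancreas the Rps27l share was 28.5% ± 1.4 in Tg and 34.7% ± 5.8 in FMTg libraries (exact permutation p = 0.143). FMTg replicates 1 to 3 had 33.5%, 33.4% and 37.0%, above the 29.9% of the highest Tg library, and replicate 4 had 26.9%. Ovary shares were 12.7% ± 5.6 and 11.8% ± 4.6 (exact permutation p = 0.696). With FMTg replicates 1 to 3 alone, the share was higher than in every Tg library in pancreas, kidney, heart and small intestine, where 3 against 3 libraries cannot give an exact p under 0.1. Rps27 itself was not called in any tissue. Its largest change was in the pancreas, where Tg libraries had 4607, 4928 and 4335 and FMTg libraries 3993, 4069, 3341, 2390 and 1970 normalised reads (log2 change -0.61 ± 0.24, adjusted p = 0.533). Of the 50-base stretches of the Rps27 transcript, 98.6% also occur in the copy Rps27rt, which had 0 to 18.1 normalised reads. The level of Rps27 is therefore uncertain in all libraries, and whether equally so in each was not tested.

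**Figure D1:**
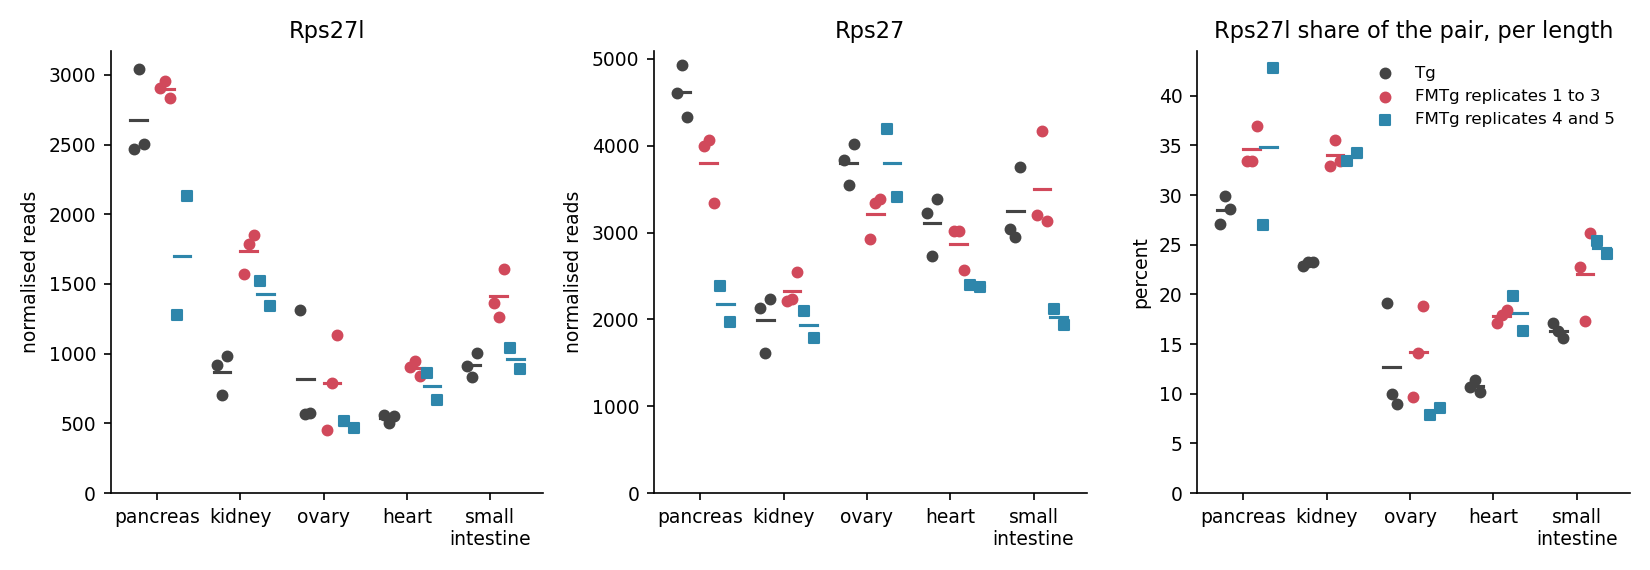
Normalised reads of Rps27l (left) and Rps27 (middle) and the share of Rps27l in their length-corrected sum in percent (right), 1 point per library with the group mean as a line, by tissue. Grey points are Tg, red points FMTg replicates 1 to 3 and blue squares FMTg replicates 4 and 5. The share lies between 22.9% and 23.3% in Tg kidneys and between 32.9% and 35.6% in FMTg kidneys.

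No other ribosomal protein gene was called in the limma fits of single tissues. Of 81 members tested in the pancreas, 0 were called (background 0.419% higher and 0.0262% lower of all genes). The same held for 82 in ovary (0% and 0%), 81 in heart (0.019% and 0%) and 81 in small intestine (0% and 0%). Without FMTg replicates 4 and 5 these counts were 0 too, in pancreas (background 0.642% and 0.0721%), ovary (0% and 0%), heart (0.00634% and 0%) and small intestine (0% and 0%). At an unadjusted p under 0.05 by limma, 0 members were higher and 12 lower in the pancreas, against 4.86% and 3.56% of all genes. The kidney had 9 higher and 0 lower (4.37% and 3.94%), the ovary 3 and 5 (4.43% and 1.93%), the heart 1 and 1 (3.27% and 3.06%) and the small intestine 0 and 0 (1.43% and 0.975%).

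The separation of single libraries was counted as well. In the pancreas 11 members had all FMTg libraries below all Tg libraries and 0 had them above (5.05% and 4.68% of all genes). The kidney had 2 above and 0 below (4.17% and 4.56%), the ovary 1 above and 4 below (3.43% and 2.38%), the heart 1 and 1 (3.42% and 3.49%) and the small intestine 0 and 0 (1.69% and 1.19%). With FMTg replicates 1 to 3 alone, 26 members lay below all Tg pancreas libraries and 0 above (10.2% and 12% of all genes). The kidney then had 7 above and 0 below (7.21% and 7.47%), the ovary 1 above and 13 below (6.36% and 5.75%), the heart 1 and 5 (7.65% and 6.08%) and the small intestine 2 and 1 (3.13% and 2.55%). The pancreas and the ovary thus had more members below Tg than the background, in 3 against 3 libraries, while no single member passed the test.

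The median log2 change of the members was -0.16 for pancreas, 0.17 for kidney, -0.01 for ovary, 0.10 for heart and 0.03 for small intestine. Over all genes tested the medians were -0.05, -0.05, -0.02, -0.01 and -0.05. The member medians became -0.23, 0.16, -0.20, -0.03 and 0.03 without FMTg replicates 4 and 5. Single libraries weighed on these medians. The median difference of the members from the Tg mean was -0.50 in FMTg pancreas replicate 3 and -0.09 and -0.10 in replicates 1 and 2. Pancreas replicate 3 had the lowest acinar share of its tissue (32.3% of reads) and 0.64% of kidney markers, whose part was not tested. In the ovary it was -0.39 in FMTg replicate 1 and -0.02 and -0.12 in replicates 2 and 3. The mean was higher in FMTg for 24 of 81 members in the pancreas and for 64 of 81 in the kidney, and these counts became 7 and 77 without replicates 4 and 5. On log2 RPM, 8 and 48 had a higher mean, and the median of all genes in the pancreas moved from -0.05 to -0.17. The members share the same libraries, so these counts are not counts of independent genes. The matching shares over all genes are not given here.

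**Figure D2:**
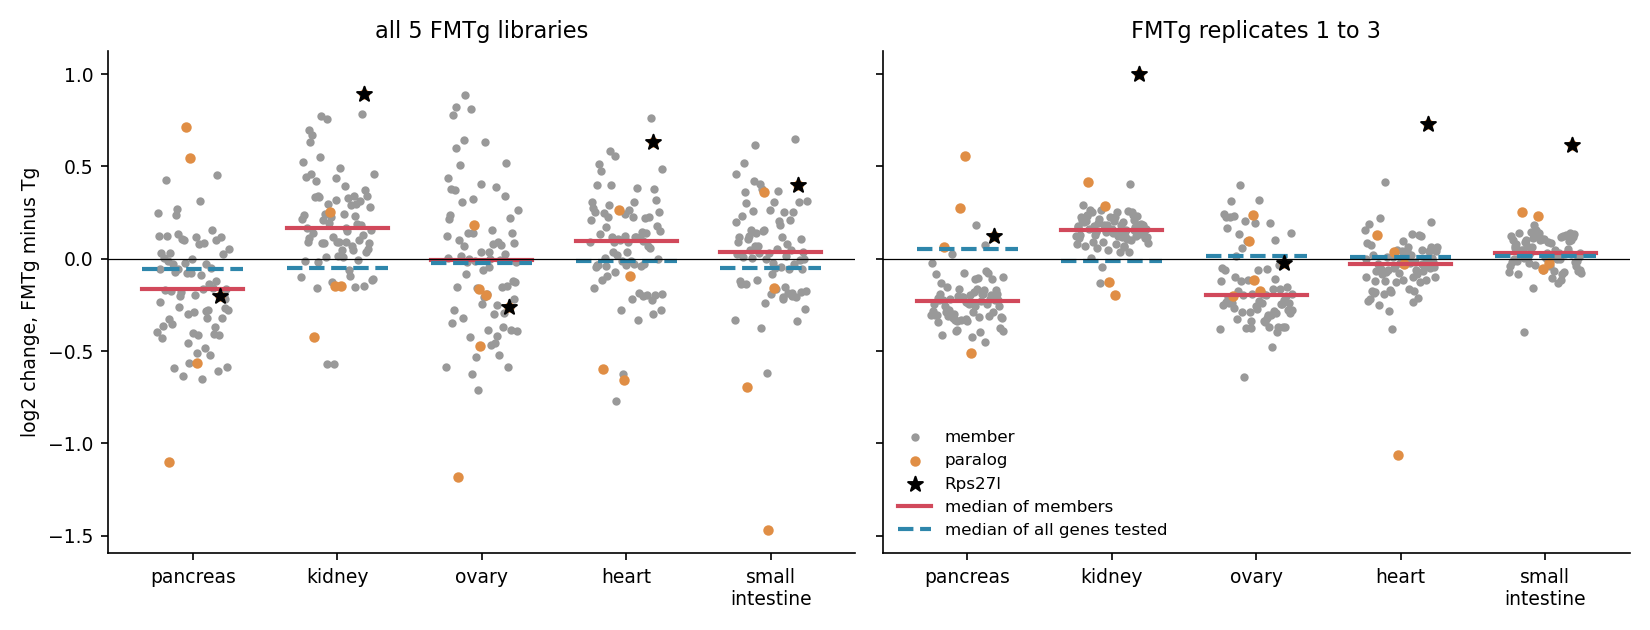
Log2 change (FMTg minus Tg) of each member on the deposited scale by tissue, with all 5 FMTg libraries (left) and with FMTg replicates 1 to 3 only (right). Orange points are paralogs, the star is Rps27l, the red line is the median of the members and the blue dashed line the median of all genes tested. Rps27l lies at 0.89 in the kidney and 0.63 in the heart on the left, and at 1.00 and 0.73 on the right.

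In the pancreas the member with the smallest p was Rpl7l1, a nucleolar paralog of the large-subunit protein Rpl7. Its normalised reads were 1742, 1937 and 1675 in Tg and 1328, 1324, 1105, 986 and 1300 in FMTg libraries. All 5 FMTg values lay below the Tg values, with a log2 change of -0.57 ± 0.15 (adjusted p = 0.221). The share of Rpl7l1 in the length-corrected sum of Rpl7 and Rpl7l1 was 6.55% ± 0.13 in Tg and 5.17% ± 0.74 in FMTg pancreas, also without overlap (exact permutation p = 0.0179, adjusted over 16 tests 0.0952). Rpl8, a large-subunit protein near the peptidyl transferase center, had 11068, 12819 and 11810 in Tg and 9688, 10342, 6936, 7559 and 7609 in FMTg. Its log2 change was -0.51 ± 0.17 (adjusted p = 0.394), and here too no library of 1 group overlapped the other. The mouse-blocked model of all libraries called both genes lower in the pancreas, with an adjusted p of 0.0175 for Rpl7l1 and 0.0286 for Rpl8 (background 1.22% higher and 0.723% lower). Library weights called Rpl7l1 alone of the members (adjusted p = 0.0246, background 2.82% higher and 0.898% lower). FMTg replicates 4 and 5 had the highest acinar marker shares of the 8 pancreas libraries, 56.3% and 51.8% of reads against 32.3% to 44.5%, and the part of that difference in these values was not tested.

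The 3 most negative log2 changes in the pancreas were those of Rpl22l1, Rps10 and Rpl35a, and the 3 most positive those of Rpl36al, Rpl3l and Rps26, with no call. Rpl22l1, the paralog of Rpl22, had 1092, 1418 and 1000 normalised reads in Tg and 1340, 1322, 1003, 73.9 and 321 in FMTg libraries. FMTg replicates 1 to 3 lay within the Tg range and replicates 4 and 5 far below it, and the log2 change of -1.10 ± 0.84 was 0.07 without these 2 libraries. Rps10 was counted at 51.4 to 79.9 in Tg and at 78.8, 77.3, 65.4, 0 and 106 in FMTg. Rpl35a had 2774, 3350 and 2964 in Tg and 2002, 2695, 2281, 1226 and 1844 in FMTg (log2 change -0.63 ± 0.23, adjusted p = 0.471). Of the members that had a higher mean, Rpl3l had fewer than 8 normalised reads in every pancreas library, and Rpl36al was high in 1 library, FMTg replicate 4. Rps26 was at 3137 to 3301 in Tg and 2399 to 3366 in FMTg replicates 1 to 3, but at 8533 and 7294 in replicates 4 and 5.

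In the kidney the most positive changes after Rps27l were those of Rps26 (log2 change 0.78) and Rpl29 (0.77), and the most negative those of Rpl35a (-0.57), Rpl39 (-0.57) and Rpl22l1 (-0.43). None was called. For Rps26, a small-subunit protein at the mRNA exit site, Tg kidneys had 1008, 858 and 1157 normalised reads and FMTg kidneys 1001, 1048, 1240, 3743 and 3135. For Rpl39, a short protein of the large-subunit exit tunnel, Tg kidneys had 869, 713 and 930 and FMTg kidneys 780, 834, 976, 302 and 283. In both genes the first 3 FMTg kidneys resembled the Tg kidneys and the last 2 did not. Without replicates 4 and 5 the log2 change was 0.13 for Rps26 and 0.05 for Rpl39.

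Rpl29, Rps26, Rpl39 and Rpl35a recurred at the ends of the other tissues. In the ovary the most positive changes were Rpl29 (0.89), Rpl21 (0.82) and Rpl35 (0.81) and the most negative Rpl22l1 (-1.18), Rpl39 (-0.71) and Rpl35a (-0.62). The heart had Rps26 (0.77), Rps27l and Rpl29 (0.58) at the top and Rpl35a (-0.77), Rpl3l (-0.66) and Rpl39 (-0.62) at the bottom. The small intestine had Rps26 (0.65) and Rpl29 (0.62) at the top and Rpl3l (-1.47), Rpl22l1 (-0.70) and Rpl39 (-0.62) at the bottom. None of these was called, with adjusted p from 0.641 to 0.990. Most of these values were nearer 0 or turned without FMTg replicates 4 and 5. Rpl29 was then at 0.40 in ovary, -0.12 in heart and -0.02 in small intestine, Rpl39 at -0.19, 0.05 and 0.11, and Rpl22l1 at -0.20 in ovary and 0.25 in small intestine. Ovarian Rpl21 was at 0.31, Rpl35 at 0.21 and Rpl35a at -0.37. Rps26 was at -0.02 in heart and 0.14 in small intestine, Rpl35a in heart at -0.18 and Rpl3l in small intestine at -0.05. Rps27l (0.73) and Rpl3l (-1.06) in the heart were farther from 0.

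The 2 ribosomal proteins of the 5S RNP were not called in any tissue. Rpl5 had 9470, 11199 and 9629 normalised reads in the Tg pancreas and 8750, 8742, 6642, 7430 and 6859 in the FMTg pancreas, all below Tg (log2 change -0.40 ± 0.15, adjusted p = 0.496). Its change was -0.24 in ovary, -0.19 in small intestine, -0.03 in heart and 0.09 in kidney. Rpl11 had 2119, 1785 and 2388 in the Tg kidney and 2290, 2231, 2572, 4448 and 4119 in the FMTg kidney. Its log2 change was 0.52 there, 0.12 in pancreas, 0.44 in ovary, 0.31 in heart and 0.46 in small intestine. Without FMTg replicates 4 and 5 the Rpl11 changes were 0.18, -0.28, -0.05, -0.10 and 0.12 in the same order. For Rpl5, replicates 4 and 5 lay below replicates 1 to 3 in kidney and small intestine, and its change in small intestine was 0.01 without them. Of the other standard members, Rps4x had log2 changes of -0.19 to 0.18, Rpl36a of -0.02 to 0.19 and Rpl7 of -0.21 to 0.09 over the 5 tissues. Rpl10, a late-joining protein of the large subunit, ran from -0.58 in the ovary to 0.09 in the heart. None was called. The acidic stalk proteins Rplp0, Rplp1 and Rplp2, which recruit translation factors, gave no call either, with log2 changes from -0.09 to 0.40.

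Over the 5 tissues together, in a limma model of all 40 libraries with the mouse as a random block, 0 of 81 members were called for a mean genotype effect (background 0.686% higher and 0.0432% lower of 16185 genes). At an unadjusted p under 0.05 without FMTg replicates 4 and 5, 2 members were higher and 5 lower (1263 and 754 of 16185 genes). With all 40 libraries, 21 members were higher and 16 lower at that limit (5.52% and 6.56% of all genes). The 10 with the smallest p were Rpl35a (-0.70 ± 0.21, adjusted p = 0.147), Rpl7a (0.44), Rps13 (-0.30), Rpl29 (0.78), Rpl39 (-0.77), Rpl19 (0.42), Rps18 (-0.35), Rpl7l1 (-0.24), Rps26 (0.81) and Rps27a (-0.43). Without FMTg replicates 4 and 5 these effects were, in the same order, -0.21, 0.06, -0.16, 0.02, -0.01, 0.07, -0.20, -0.19, -0.02 and -0.07, so that of Rps26 turned. Without the mouse block Rps13 and Rpl7l1 were called lower (adjusted p = 0.0387 and 0.0225, background 1.57% higher and 0.538% lower). Without FMTg replicates 4 and 5, 1 member was called, Rps27l, with a mean log2 effect of 0.49 ± 0.12 (adjusted p = 0.0413) against a background of 1.64% higher and 0.192% lower. With all libraries the mean effect of Rps27l was 0.24 ± 0.16 (adjusted p = 0.558). For effects that differed between tissues 0 of 81 members were called (background 0.192%), and 5 had an unadjusted p under 0.05 (8.46% of all genes), namely Rps27l, Rpl8, Rpl23a, Rpl27 and Rpl14.

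The clearest differences among ribosomal protein genes lay within the FMTg group. FMTg replicates 4 and 5 (10 libraries) were set against FMTg replicates 1 to 3 (15 libraries) with tissue in the model and mouse as a random block, a comparison added after the data were seen. Of 81 members, 37 were called higher, 16 lower and 28 not, against 9.05% higher and 19.6% lower among 16153 genes. The median difference of the members was 0.12 on the log2 scale and that of all genes -0.21. In 21 members both replicates 4 and 5 lay above replicates 1 to 3 in each of the 5 tissues, and in 3 members they lay below in each (1.76% and 2.07% of all genes).

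Among the higher genes, Rps26 differed by 1.64 ± 0.10 on the log2 scale, Rpl29 by 1.51 ± 0.09, Rpl35 by 1.25 ± 0.12 and Rpl28 by 1.14 ± 0.07. Rpl29 in the heart had 747, 653 and 1016 normalised reads in Tg, 694, 629 and 884 in FMTg replicates 1 to 3, and 2391 and 2574 in replicates 4 and 5. Rpsa, the laminin receptor protein of the small subunit, differed by 1.04 ± 0.08, and Rpl11 by 0.99 ± 0.08. In each of these 6 genes the difference had the same sign in every tissue, and in the Rpl29 example the Tg libraries lay close to FMTg replicates 1 to 3. The differences were not of 1 size, so the read ratios between standard ribosomal protein genes differed between these 2 sets of libraries.

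Among the lower genes, Rpl22l1 differed by -2.34 ± 0.20, a 5.05-fold lower level and Rpl39 by -1.51 ± 0.09 (2.84-fold lower). Both were lower in all 5 tissues without overlap. Rpl35a (-0.97 ± 0.17), Rps27a (-0.71 ± 0.10) and Rpl37a (-0.63 ± 0.09) were lower without overlap in 4 tissues each. Rps27l was 0.49 ± 0.12 lower (adjusted p = 0.0047), from -0.81 in the pancreas to -0.24 in the heart, so the 2 sets of FMTg mice also differed in the paralog that was called between genotypes. Rpl22, the partner of Rpl22l1, was not called (-0.17 ± 0.09, adjusted p = 0.146). Accordingly the share of Rpl22l1 in the length-corrected sum of the pair was 9.40% to 38.2% in replicates 4 and 5, against 39.3% to 59.5% in Tg libraries.

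In the ovary Ddx3y was at 0.46 and 2.39 normalised reads in replicates 4 and 5. Ovarian Rps26 had 1436, 2003 and 2055 in FMTg replicates 1 to 3 and 6983 and 6604 in replicates 4 and 5. Across the 81 members the difference had a Pearson r of 0.30 with the GC content of the transcript (Spearman 0.20), 0.13 with transcript length (0.18) and 0.09 with the share of 50-base stretches found in other genes (0.07). These are descriptions over genes that share the same 25 libraries. Mouse, animal number, sex outside the ovary (Ddx3y moved with the split there, FMTg pancreas replicate 1 apart) and any difference in handling or sequencing cannot be told apart.

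Other values moved with the same split. In each tissue replicates 4 and 5 had the fewest genes detected, for example 12004 and 13937 in the pancreas against at least 15406 in the other 6 libraries. Kidney markers in the kidney took 4.06% and 3.92% of reads against 2.41% to 3.13%, and intestine markers in the small intestine 2.69% and 2.76% against 1.36% to 1.90%. Ovarian adipocyte markers took 0.344% and 0.421% against 0.012% to 0.083%, and ovarian macrophage markers 0.067% and 0.084% against at most 0.038%. Their part in the result was not tested.

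**Figure D3:**
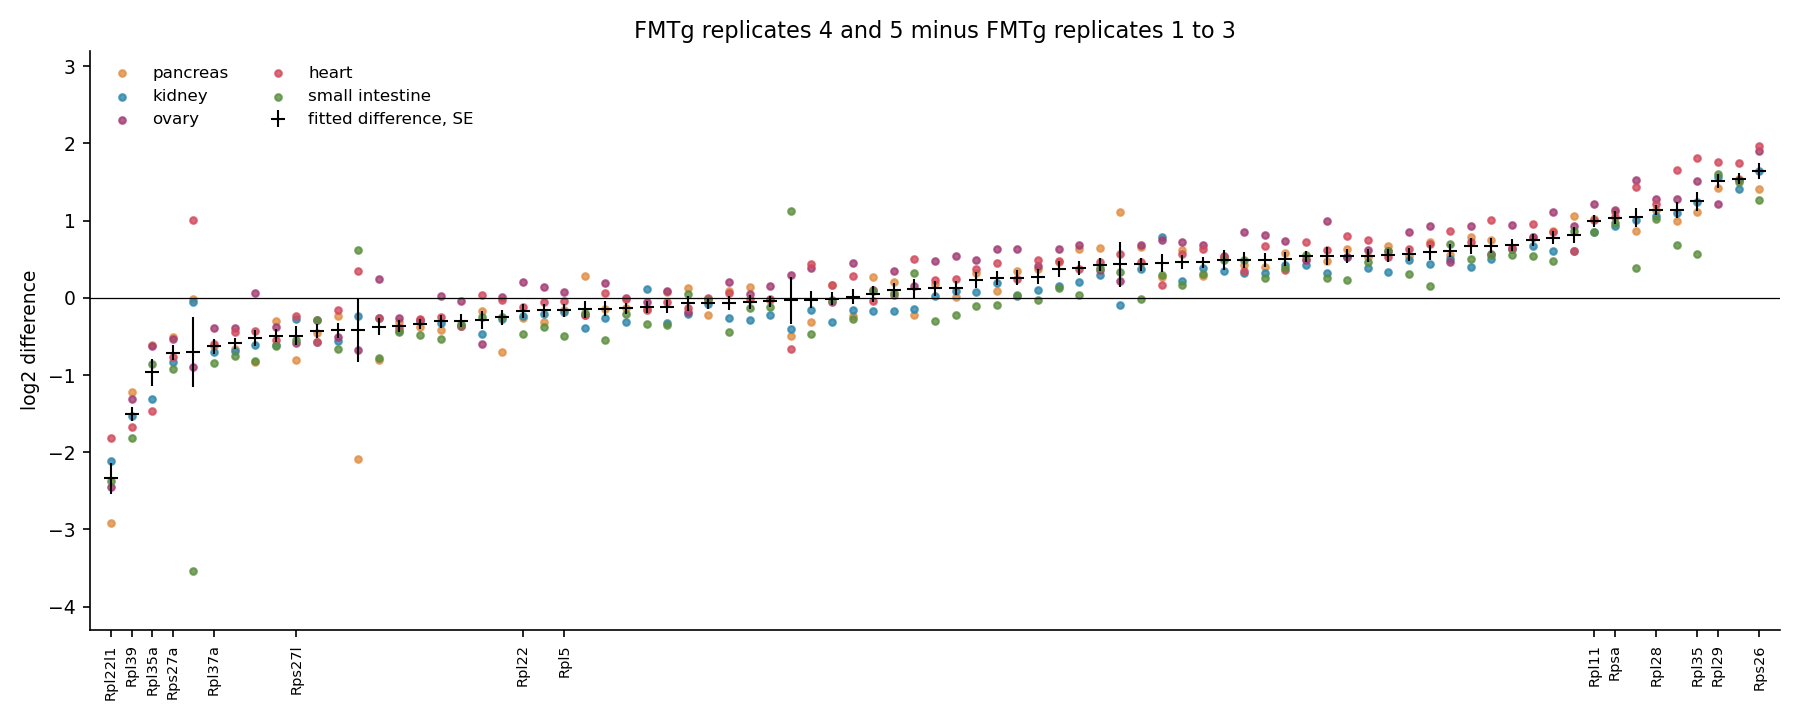
Difference of FMTg replicates 4 and 5 from FMTg replicates 1 to 3 for each of 81 members, sorted, on the log2 scale. Large points with bars are the fitted difference and its standard error, and small points are the 5 tissues. Rpl22l1 at -2.34 and Rpl39 at -1.51 lie at the low end, and Rpl29 at 1.51 and Rps26 at 1.64 at the high end, with the members described in the text labelled.

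Like most genes tested, most ribosomal protein genes differed between tissues. Within the 15 Tg libraries, 79 of 81 members differed between the 5 tissues by limma with mouse as a block (93.8% of all genes did), and Rpl24 and Rpl36al did not. On the deposited scale the members were highest in the pancreas, with a median log2 difference of 1.21 from the other 4 tissues, 77 higher and 1 lower (22.7% and 38.9% of 16251 genes). They were lowest in the kidney (-0.82, with 0 higher and 76 lower, background 25.3% and 32.1%) and in the heart (-0.54, with 1 higher and 69 lower, background 28.1% and 32%). Ovary was at 0.17 (22 higher, 4 lower, background 30.3% and 22.4%) and small intestine at -0.03 (3 and 4, background 29.8% and 27%).

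The scaling matters here, since the 20 other genes of most reads took 53.7% ± 5.1 of the reads of Tg pancreas (SD, n = 3). On log2 RPM the pancreas median was 0.27 (42 higher and 3 lower, background 6.01% and 76.4%), the kidney -0.52 (1 and 67, background 32.5% and 19.9%), the ovary 0.71 (74 and 0, background 54.8% and 8.07%), the heart -0.58 (1 and 67, background 22.2% and 29.4%) and the small intestine 0.11 (12 and 0, background 29.7% and 17.3%). The median of all genes moved from -0.23 to -1.01 in the pancreas and from 0.05 to 0.54 in the ovary. Relative to that median the members stood at 1.44 and 1.27 in the pancreas, -0.72 and -0.68 in kidney, 0.12 and 0.18 in ovary, -0.00 and 0.04 in small intestine and -0.44 and -0.43 in heart, on the 2 scales respectively. The order of the tissues relative to all genes was the same on both. The 2 scales differ mainly by a factor per library, which subtracting the median of all genes largely removes. This agreement was therefore nearly given in advance. The member medians themselves changed order, with the ovary above the pancreas on log2 RPM.

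**Figure D4:**
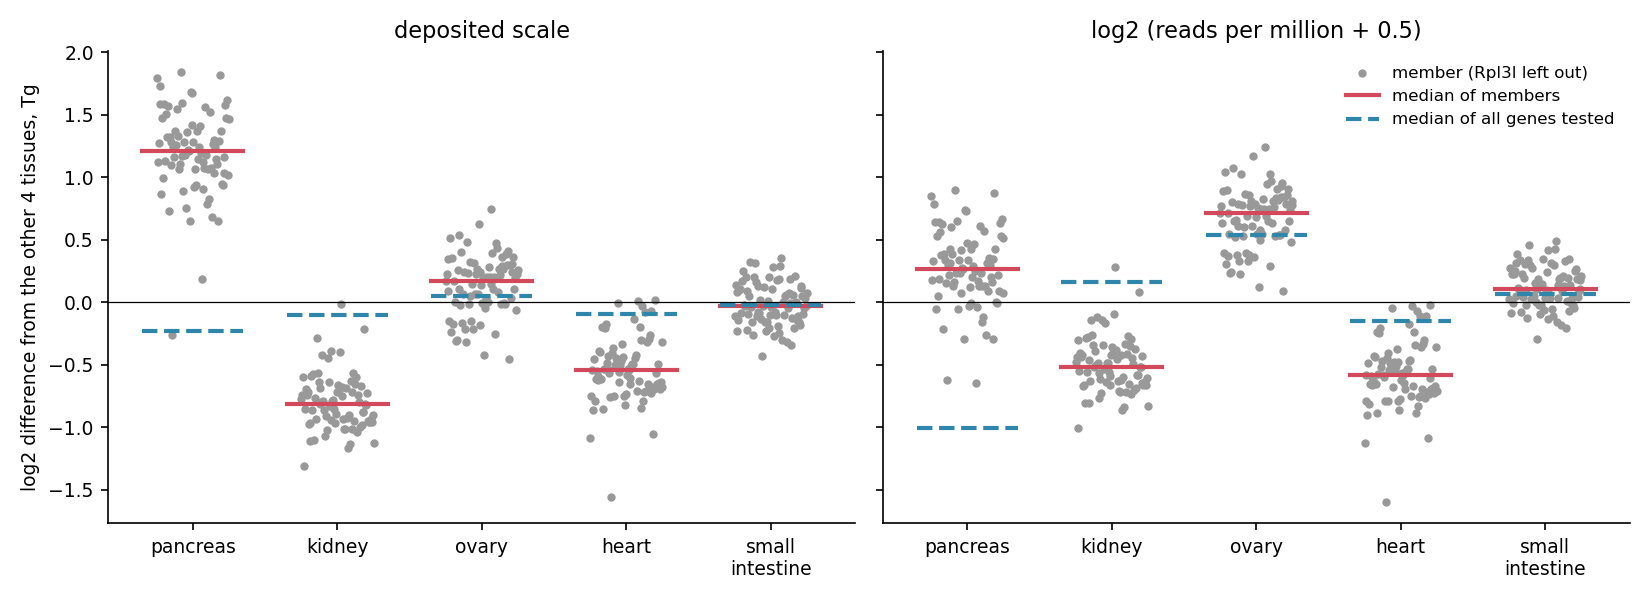
Log2 difference of each member between 1 tissue and the mean of the other 4 in the 15 Tg libraries, on the deposited scale and on log2 RPM, with medians as lines and Rpl3l left out. The pancreas median falls from 1.21 to 0.27 between the scales, while kidney (-0.82 and -0.52) and heart (-0.54 and -0.58) stay below 0 on both.

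Some members left the common pattern of a tissue. In the pancreas the largest differences on the deposited scale were those of Rpl32 (1.84), Rps27l (1.82), Rpl10 (1.80), Rpl12 (1.73) and Rpl4 (1.69), and the smallest those of Rpl3l (-3.38), Rpl24 (-0.26), Rps10 (0.19), Rps27 (0.65) and Rpl39 (0.65). In the kidney Rpl7l1 (-0.01), Rps27l (-0.21), Rpl24, Rpl36al and Rpl7a were least low, and Rpl3l (-1.35), Rpl12 (-1.31), Rps12 (-1.16), Rps14 (-1.14) and Rpsa (-1.13) lowest. The ovary was led by Rps10 (0.75), Rpl39 (0.63), Rpl22l1 (0.54), Rpl13a (0.52) and Rpl3 (0.48), with Rpl3l (-2.15), Rps27l (-0.45), Rpl7a (-0.42), Rpl29 and Rpl19 at its low end. In the small intestine the members ran from Rpl36 (-0.43), with Rps21, Rps13 and Rpl7l1 near it, to Rps12 (0.35), with Rpl24, Rpl29 and Rpl7a near it. Rps27l was thus 0.61 above the member median in pancreas and 0.60 above it in kidney, and 0.62 below it in ovary and 0.51 below it in heart. All these contrasts between Tg tissues include Tg ovary replicate 1, with 21.4% of its reads from pancreas acinar markers.

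The heart had its own pair. Rpl3l, the paralog of Rpl3 known for its expression in striated muscle, was 7.10 ± 0.96 higher in the heart than in the other tissues on the log2 scale, and Rpl3 was the lowest member of the heart at -1.56. Rps29 (0.02), Rps13 (0.01) and Rpl36 (0.00) followed Rpl3l, and Rpl10 (-1.08), Rps27l (-1.05), Rpl12 (-0.86) and Rpl22l1 (-0.85) were at the low end. Tg hearts had 1802, 2493 and 2367 normalised reads of Rpl3l, and Rpl3l made up 47.8% ± 9.0 of the length-corrected sum of the pair (SD, n = 3). In FMTg hearts it had 2169, 310, 1700, 2048 and 2194 normalised reads, so 1 library lay far below the others. That library, FMTg heart replicate 2, had 5008 normalised reads of Rpl3 and an Rpl3l share of 5.74%.

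The same heart differed in other cardiac genes. Myh6, the main myosin of the mouse ventricle and atrium, had 110672 normalised reads there against 312795 to 584451 in the other 7 hearts, and Nppa, the atrial natriuretic peptide, had 41530 against 840 to 14251. Erythroid markers took 2.15% of its reads. Their part in the low Rpl3l was not tested. Outside the heart Rpl3l was under 1% of its pair except in Tg small intestine replicate 1 (3.44%) and FMTg small intestine replicate 1 (1.44%), the small intestines with the largest shares of heart markers (0.50% and 0.19% of reads). The genotype effect on Rpl3l was not called in the heart (log2 change -0.66 ± 0.61, adjusted p = 0.784).

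**Figure D5:**
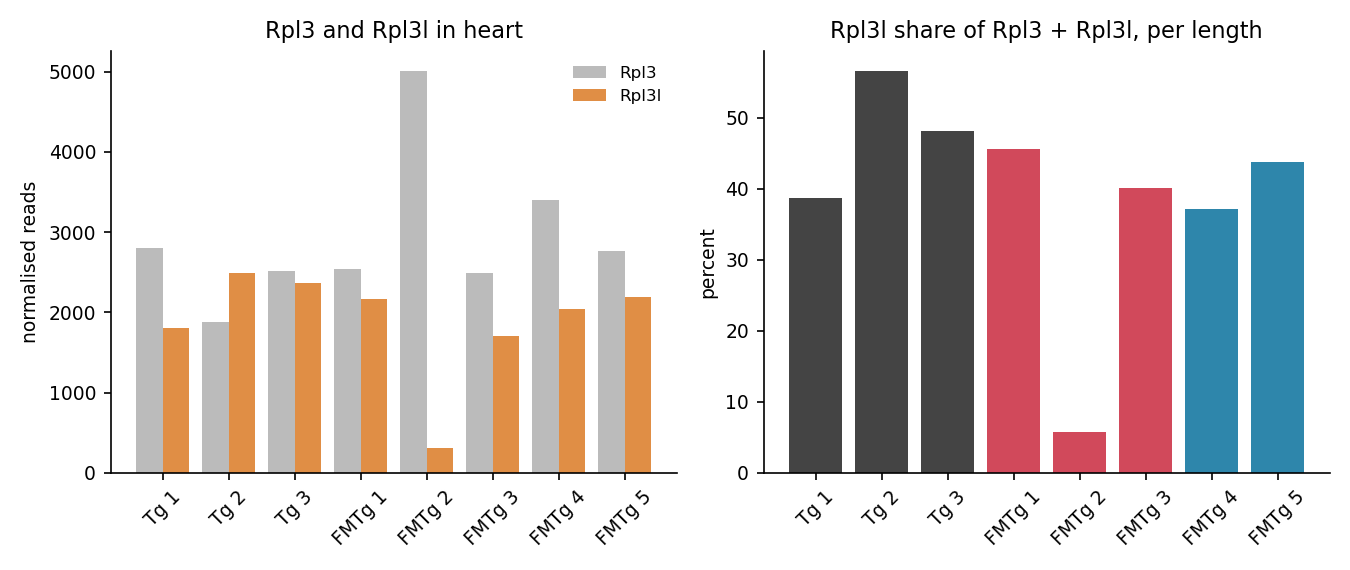
Normalised reads of Rpl3 and Rpl3l in each of the 8 heart libraries as bars from 0, with the share of Rpl3l in their length-corrected sum. FMTg replicate 2 has 310 reads of Rpl3l and 5008 of Rpl3, whereas the other 7 hearts have 1700 to 2493 of Rpl3l.

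Levels per transcript length, as RPKM (reads per kilobase of transcript, scaled to the library's total) in the Tg libraries, put the same few genes first in most tissues. Rplp1 led the pancreas (826) and the ovary (1009), with Rps27 next in the ovary (1008), and Rps27 led the kidney (455), the heart (592) and the small intestine (680). Medians over the members were 267 in pancreas, 160 in kidney, 329 in ovary, 160 in heart and 227 in small intestine. On this scale Rps27l was at 211 ± 7 in the pancreas (SD, n = 3), 137 ± 20 in kidney, 140 ± 41 in ovary, 70.8 ± 8.0 in heart and 133 ± 16 in small intestine. Kidney, ovary and small intestine did not differ beyond their spread, pancreas lay above them and heart below. The ovary mean includes Tg replicate 1, the library with 21.4% of its reads from pancreas acinar markers. That library had 1044 reads of Rps27l, against 707 and 688 in the other Tg ovaries, whose depth was higher. RPKM, like RPM, counts the enzyme genes of the pancreas in its total.

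At the low end were genes with and without stretches shared with other annotated genes. Rpl39l and Rpl3l share none. Rpl39l, a paralog of Rpl39 known from testis, had a mean of 0 to 0.31 in the 5 tissues and was tested only in the ovary. Rps10 was at 2.86 to 9.36, although its product is part of every small subunit. Of its 50-base stretches, 92.4% also occur in transcripts of other genes, mostly of RPS10-NUDT3, a readthrough gene of the annotation. For Rpl24 the share was 81.7%, most with Gm28037, for Rpl13a 57.4%, all with Gm45713, and for Rpl36al 63.3%, most with Gm49383. Over the 82 members the median shared share was 58.7%, 3 members shared none and 6 shared at least 90%. The treatment of reads that fit several genes is not given in the sources used here, so levels of these genes are uncertain.

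All members together took 2.04% ± 0.16 of the reads of Tg pancreas (SD, n = 3) and 1.68% ± 0.28 of FMTg pancreas (SD, n = 5). The shares were 1.26% ± 0.13 and 1.38% ± 0.09 in kidney, 2.46% ± 0.23 and 2.70% ± 0.54 in ovary, 1.24% ± 0.14 and 1.29% ± 0.14 in heart and 1.84% ± 0.27 and 1.91% ± 0.25 in small intestine. The 2 means differed by less than the larger of their SDs in all tissues but the pancreas. With the 20 other genes of most reads left out of the total, the pancreas shares were 4.41% ± 0.19 and 4.07% ± 0.60. These sums are a description and were not tested.

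The starts of the genes were examined in RefSeq windows of 250 bases before and 50 after each start (GRCm38.p6), which were found for 62 of the 82 members. A run of at least 5 pyrimidines over the first transcribed base was present in 20 (32.3%), against 11.8% of 27025 genes. The letters CCGGAAG, searched on both strands, a core bound by ETS-family factors, were present in 25 (40.3% against 9.93%). A p53 half-site match was present in 5 (8.06% against 9.55%), in Rpl35a, Rps19, Rps21, Rps27 and Rps27l. At least 2 in 1 window were found in 1 member, Rps27l, whose lines are printed above (1.61% against 0.392% of all genes).

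Genes that make or regulate ribosomes were read from lists beside the members. Of 35 translation factors, 16 genes of RNA polymerase I transcription, 42 of small-subunit assembly, 49 of large-subunit assembly, 77 mitochondrial ribosomal proteins, 10 of the Myc network and 5 ribosomal protein genes outside the name rule, 0 were called in any tissue. In the pancreas their medians were -0.16, -0.18, -0.30, -0.36, -0.22, 0.09 and -0.28, beside -0.16 for the ribosomal protein genes and -0.05 for all genes. Examples there were Nop56, a core protein of box C/D snoRNPs (-0.95 ± 0.25, adjusted p = 0.224), and Ncl, nucleolin (-0.54 ± 0.18, adjusted p = 0.387). In the ovary the smallest p values were those of Rrp1 (0.78 ± 0.16, adjusted p = 0.316), Ubtf, the activator of ribosomal RNA transcription (0.67 ± 0.14, adjusted p = 0.326), and Tcof1, its nucleolar partner (0.80 ± 0.19, adjusted p = 0.393). In the model of all 40 libraries 0 of these genes had a called mean effect. For effects differing between tissues, 1 small-subunit and 2 large-subunit assembly genes were called (background 0.192%). Without FMTg replicates 4 and 5, 1 RNA polymerase I gene and 1 small-subunit assembly gene had a higher mean effect (background 1.64%). The effect of 1 large-subunit assembly gene then differed between tissues (9 of 16185 genes did).

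The list of mTORC1 brakes and TOP mRNA regulators held 22 genes, of which 2 rose in the pancreas and 2 in the kidney, the same 2 in both. Of all genes, 0.419% were called higher in the pancreas and 0.603% in the kidney. Ddit4l, an inhibitor of mTORC1 signalling, rose by 2.66 ± 0.40 in the pancreas (adjusted p = 0.0245) and by 1.37 ± 0.13 in the kidney (adjusted p = 0.0015) on the log2 scale. Sesn2, a leucine sensor that restrains mTORC1 and a known p53 target, rose by 1.56 ± 0.24 (adjusted p = 0.0245) and by 1.07 ± 0.17 (adjusted p = 0.0296). Every FMTg library lay above every Tg library of its tissue for both genes in pancreas, kidney, heart and small intestine, and in the ovary for Sesn2 but not for Ddit4l (-0.12 ± 0.30). The other 20 genes of the list were not called. Messenger RNA levels do not show translation, which was not measured.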

How the data were processed

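RNA of whole tissue was sequenced. The submitters' processing notes name STAR 2.6.0b, the build GRCm38 and DESeq2. The read counter, strand setting and annotation are not given in the sources used here. The values that the authors deposited are log2 after variance stabilisation, with 1 size factor for each of the 40 libraries. The size factors and the form of the scale were read from the values. Inverting that scale gave whole reads for 100% of values (tolerance 0.01), from which normalised reads, RPM (reads scaled to a library's total) and RPKM were computed.

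Each tissue (3 Tg, 5 FMTg libraries) was fitted by a linear model with a variance trend (limma 3.58.1, R 4.3.3) on the deposited values, over genes whose tissue mean was at least 1 above the lowest value, with Benjamini-Hochberg adjustment over all of them. A gene was called at an adjusted p under 0.05. Models of several tissues used the mouse as a block (statmod 1.5.0, correlation 0.249 over 40 libraries). Exact permutation tests were two-sided (scipy 1.17.1). The fits were tested on simulated reads. Libraries of 1 group and tissue came from different mice, per the labels.

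The members and gene lists were chosen with earlier results of these data known. Named members are the paralog pairs, Rpl5 and Rpl11, all called members, the 3 most positive and 3 most negative changes per tissue, the 10 smallest p of the mean effect and 5 of the tissue difference, the 5 highest and 5 lowest per Tg tissue, and up to 4 genes per other list. Rpl8, the members set out for FMTg replicates 4 and 5, and the genes beside Rpl3l in the heart were chosen after their values were seen. A few members that the rule names are not reported here. Lengths and shared stretches of 50 bases come from GENCODE M21. Start windows come from RefSeq (GRCm38.p6).

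Alternatives were library weights, 1 model of all libraries, voom on recovered reads, log2 of RPM plus 0.5, no filter, no variance trend, a replicate block, only mice with an ovary library, and fits without single replicates.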

Additional observations from a re-analysis of the deposited data

Results flagged for a closer look

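Among 82 groups of 5 FMTg libraries tested, 4 had a library whose gap to its nearest neighbour was over 0.71 of the whole range. Chance gives about 1 such group in 20.

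Rpl36al in FMTg pancreas replicate 4 had 216 normalised reads, against at most 29.0 in the other 4. Rpl3l in FMTg heart replicate 2 had 310 normalised reads, against 1700 to 2194 in the other 4. In the same heart Rpl10 had 4651 normalised reads, against 3090 to 3402. This library also had the lowest share of heart markers, 1.85% of its reads, and the part of that in either gene was not tested. Rpl22 in FMTg small intestine replicate 5 had 1041 normalised reads, against 1756 to 2084.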

How the results depend on the processing

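The kidney call of Rps27l kept its direction under every alternative run, and its adjusted p stayed under 0.05 in 8 and not in 9 of them. With 1 model of all libraries, with log2 RPM and without a variance trend, 0 members were called in the kidney. Fits without 1 replicate gave 0 to 1, and the shares over all genes for these are not given here. In the pancreas 1 model of all libraries called 2 members, Rpl8 and Rpl7l1 (background 1.22% higher and 0.723% lower). Library weights called 1 there, Rpl7l1 (2.82% and 0.898%), and 1 in the heart, Rps27l (0.146% and 0.019%). The mean effect gave 2 calls without the mouse block, Rps13 and Rpl7l1 (1.57% and 0.538%). Without FMTg replicates 4 and 5 the mean effect gave 1 call, Rps27l (1.64% and 0.192%). Of the 15 exact tests of paralogs, 2 had p under 0.05 unadjusted, 1 on log2 RPM, and 1 to 2 without 1 replicate. Without FMTg replicates 4 and 5 an exact p cannot go below 0.1.

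The pancreas change of Rps27l, -0.20, reversed with library weights (0.093), with only mice with an ovary library (0.12), with the replicate block (0.12) and without FMTg replicates 4 and 5 (0.12), and ran from -0.29 to 0.012 without 1 replicate. The replicate block gives the same estimate as leaving out FMTg replicates 4 and 5, since no Tg library has these numbers. Only mice with an ovary library leaves them out too, so these reversals are not independent. Its ovary change, -0.26, reversed with library weights (0.095) and ran from -0.47 to 0.14 without 1 replicate, the last without Tg replicate 1. The ovary share of Rps27l, 0.87 percentage points lower in FMTg, was 1.51 higher without FMTg replicates 4 and 5 and ran from -2.71 to 2.34 without 1 replicate. Apart from fewer libraries, the cause of these changes was not tested.

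Tg and FMTg libraries with the same number came from different mice, and their deviations correlated between -0.59 and 0.59. Whether such libraries share more than a number was not tested. With the replicate block, 0 members were called in the pancreas, 1 in the kidney (Rps27l, change 1.00, adjusted p = 0.0285) and 0 in the other 3 tissues. The shares over all genes for this fit are not given here. Rpl39l had 0 reads in every kidney and small intestine library and at most 11 in an ovary library. It passed the filter in 1 tissue, the ovary.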
